A study of Mus musculus with 10 samples.

Results

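Genes of protein folding in the endoplasmic reticulum (ER) and of the integrated stress response were followed in hearts of male mice exposed before birth to anti-Müllerian hormone. The set is a given list of 32 genes, taken by symbol, and all 32 were found among the 55335 gene identifiers of the deposited table. The samples were 5 control hearts, from sons of vehicle-treated (PBS) dams, and 5 PAMH hearts, from sons of dams given the hormone in pregnancy. All 10 samples are wild type by genotype, and the labels name no strain, age, litter or part of the heart. No label ties a sample to a particular animal, so p-values here reflect sample-to-sample spread, part of which may be technical. RNA was measured by sequencing and is given as FPKM, read fragments scaled by transcript length and by the total mapped, a scale on which levels of different genes can be compared.

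As background, secretory and membrane proteins fold in the ER with the help of chaperones, lectins and disulfide isomerases. Unfolded protein there is sensed by 3 membrane proteins, IRE1 (gene Ern1), ATF6 and PERK (gene Eif2ak3), which raise folding enzymes and the machinery of ER-associated degradation, the route by which misfolded proteins are sent back to the cytosol and destroyed. PERK also phosphorylates the translation factor eIF2, as GCN2 (gene Eif2ak4) does when amino acids are short, and this favours translation of the transcription factor ATF4 and its targets. That shared eIF2 arm is the integrated stress response. Cardiomyocytes use the same network for the membrane and secreted proteins they make, and much of its control, such as XBP1 splicing and ATF4 translation, is not visible in the level of a gene's RNA.

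Promoters of ER chaperones are known for the ER stress response element, CCAAT and CCACG separated by 9 bases, where NF-Y and ATF6 bind. The sites are shown so that members with and without the element can be set side by side. RefSeq promoter windows on build GRCm38.p6, from 250 bases before to 50 bases after a gene's start, were found for 27 of the 32 genes (28 windows, as Eif2ak4 has 2). Atf6, Hyou1, Derl1, Ppp1r15b and Manf had none. The element was searched on both strands. It was found in the windows of 8 genes, and in 0.119% of all 32851 windows (39 windows). Each site is written 5′ to 3′ on the strand on which it reads CCAAT first, with CCAAT and CCACG in capitals, and Hsp90b1 has 2.
Hspa5, chr2:34772025-34772043: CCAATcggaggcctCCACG
Hsp90b1, chr10:86705638-86705656: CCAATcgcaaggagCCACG
Hsp90b1, chr10:86705533-86705551: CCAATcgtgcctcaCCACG
Pdia6, chr12:17266491-17266509: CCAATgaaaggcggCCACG
Calr, chr8:84847075-84847093: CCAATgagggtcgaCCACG
Canx, chr11:50325800-50325818: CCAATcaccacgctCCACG
Dnajc3, chr14:118937827-118937845: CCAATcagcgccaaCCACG
Creld2, chr15:88819520-88819538: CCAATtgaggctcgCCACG
Syvn1, chr19:6046532-6046550: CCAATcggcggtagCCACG

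A second element, the C/EBP-ATF site TGATGNAAN, is bound by ATF4 together with C/EBP factors. It was found on either strand in the windows of 4 genes, and in 3.95% of all windows, so it is a far less selective pattern than the first. The ATF6 site TGACGTGG and the ATF4 form TGATGCAAT were in no member's window, against 0.676% and 0.192% of all windows. The sites found are shown because 2 of the 4 carriers are the 2 members that fell.
Trib3, chr2:152344039-152344047: TGATGTAAA
Chac1, chr2:119351048-119351056: TGATGCAAC
Asns, chr6:7693224-7693232: TGATGAAAC
Herpud1, chr8:94386316-94386324: TGATGCAAC

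Chac1 and Herpud1 carry the same 9 letters, both on the strand opposite to the gene, at 194 and 113 bases before the start. TGATGCAAC, a form chosen for counting after these sites had been seen, was in 0.17% of all windows. The windows of both genes follow, on the gene's strand, with the site in capitals and therefore as its reverse complement. A match of letters describes the window and shows neither binding nor a cause.
Chac1 promoter, chr2:119350992-119351291: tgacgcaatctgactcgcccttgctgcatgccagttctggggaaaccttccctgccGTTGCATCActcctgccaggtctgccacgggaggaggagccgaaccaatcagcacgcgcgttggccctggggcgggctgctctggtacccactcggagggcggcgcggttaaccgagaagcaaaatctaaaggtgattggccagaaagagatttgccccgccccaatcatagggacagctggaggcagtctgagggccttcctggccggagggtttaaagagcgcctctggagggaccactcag
Herpud1 promoter, chr8:94386179-94386478: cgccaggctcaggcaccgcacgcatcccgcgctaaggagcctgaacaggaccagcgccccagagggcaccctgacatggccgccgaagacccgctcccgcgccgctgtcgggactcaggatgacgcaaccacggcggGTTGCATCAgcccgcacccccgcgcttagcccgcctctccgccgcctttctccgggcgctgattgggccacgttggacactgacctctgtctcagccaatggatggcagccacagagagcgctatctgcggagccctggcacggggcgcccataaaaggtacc

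A sample's deposited FPKM added up to 654350 at the lowest and 717453 at the highest, and the number of reads behind them is unknown. Genes of the mitochondrial genome held 55.3% to 56.8% of the sum in controls and 51.5% to 56.6% in PAMH samples. With their 7 nuclear copies they held 77.6% to 79.6% and 73.7% to 79.7%. PAMH replicate 4 stood apart, with 16113 genes above 0 where the other samples had 18037 to 21097, and a hemoglobin sum of 859 FPKM where the others had 97.1 to 436. Cardiomyocyte markers were high, with Myh6 at 1198 to 1861 FPKM, while of 4 atrial markers Myl7 was listed at 0 in all 5 controls and 3 PAMH samples (at most 1.02 FPKM) and Nppa had 46.5 to 129 FPKM in control and 78.4 to 217 FPKM in PAMH samples (log2 fold change 0.81, limma adjusted p = 0.150). The atrial markers summed to 46.8 to 129 and 78.7 to 217 FPKM. Markers of B and plasma cells, cells with a large ER, summed to 0.464 to 1.22 FPKM in control and 0.526 to 1.29 FPKM in PAMH samples. Of 5 macrophage markers 1 passed the test used below (Cd68, higher), with sums of 48.0 to 55.7 and 55.6 to 67.1 FPKM. Of 5 smooth muscle and pericyte markers 1 passed (Acta2, higher, with sums of 75.9 to 115 and 127 to 171 FPKM). Of 4 mesothelial markers only 1 was tested, and it passed (Upk3b, higher, with sums of 0.377 to 1.06 and 2.32 to 5.53 FPKM). Msln, Upk1b and Wt1 were too low to be tested. Msln and Upk1b were higher in every PAMH sample than in every control, and Wt1 overlapped. None of 5 endothelial, 5 fibroblast or 6 cardiomyocyte markers passed. The part of these markers in the results was not tested. In whole tissue, fewer cells of a type and less RNA per cell cannot be told apart.

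The 32 genes spanned a wide range of levels. In control hearts the mean ran from 85.4 FPKM for the calcium-binding lectin chaperone gene Calr to 0.479 FPKM for Eif2ak4. Below Calr came Herpud1 (63.9 FPKM), Hspa5 (60.4 FPKM) and P4hb (58.0 FPKM), whose control ranges overlapped in this order, then Hsp90b1 (39.1 FPKM), Pdia3 (30.1 FPKM) and Canx (29.3 FPKM). The control range of Calr did not overlap that of the next gene, Herpud1. It did overlap that of Hspa5 (lowest Calr control 72.5 FPKM, highest Hspa5 control 75.4 FPKM). Canx did not overlap with the next gene, Dnajb9 (16.2 FPKM). From Dnajb9 down to Ddit3 (3.08 FPKM) each gene's control range overlapped that of its neighbour. The sensor gene Atf6 (9.69 FPKM) stood above Ern1 (1.53 FPKM) and Eif2ak3 (0.938 FPKM). The transcription factor gene Atf4 (13.7 FPKM) stood well above Chac1 (3.16 FPKM), Trib3 (1.08 FPKM) and Asns (0.577 FPKM), which its protein induces. This order does not hold for ATF4 targets in general. Of those outside the set, some had higher control means than Atf4, among them Ddit4 (37.5 FPKM) and Vldlr (24.2 FPKM), and others had lower ones.

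**Figure D1:**
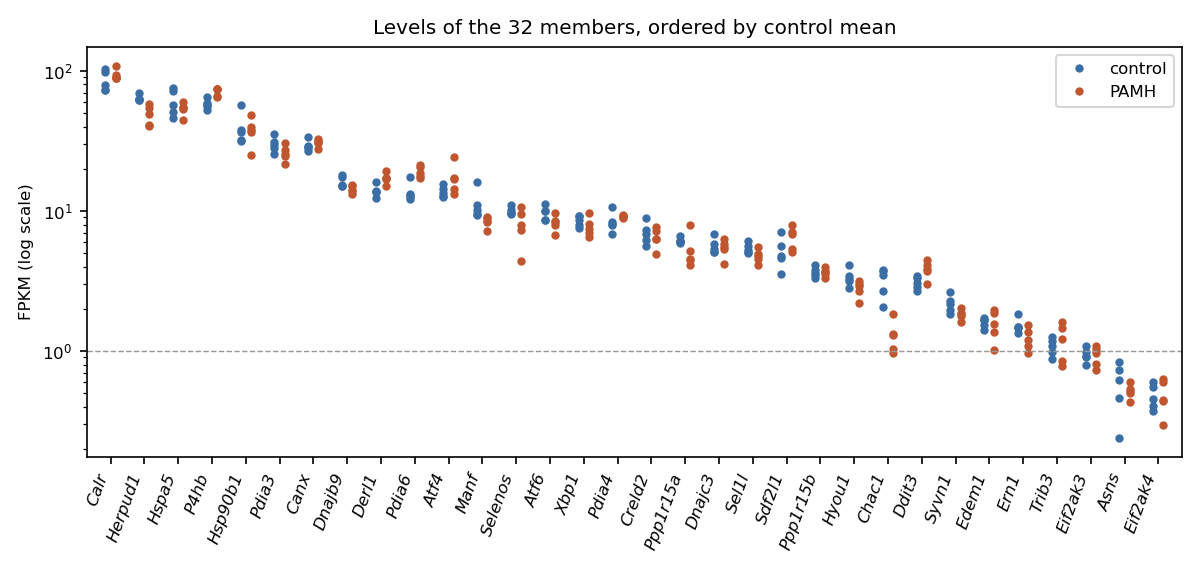
FPKM (log scale) of each of the 32 genes in the 5 control and 5 PAMH samples, ordered by control mean, with a dashed line at 1 FPKM. Calr lies highest and Eif2ak4 lowest, and the PAMH points of Chac1 lie below all its control points.

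In PAMH hearts 4 genes of this set changed, 2 in each direction. Chac1, which degrades glutathione, and Herpud1, an ER membrane organiser of degradation, fell in PAMH hearts, by 0.85 and 0.40 on the log2(FPKM + 1) scale. Pdia6 and P4hb, both protein disulfide isomerases, rose by 0.45 and 0.28. Of the 32 genes 29 had a mean of at least 1 FPKM and were tested (Eif2ak3, Eif2ak4 and Asns were below), and the other 25 did not pass limma's test at an adjusted p of 0.05 over all 9439 tested genes. Among all tested genes 4.95% were called higher and 1.24% lower, 6.19% in all, where the set had 2 of 29 higher (6.90%) and 2 of 29 lower (6.90%), 13.8% in all. The set's share called higher was near that background, and its share called lower was above it but rests on 2 genes. The list was chosen with earlier results of these data known, so these shares are a description and not a test. The median log2 fold change was -0.09 in the set and 0.07 over all genes, and 10 of 29 members (34.5%) had a positive change against 67.3% of all genes.

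The calls of the risers depended on the scaling of the samples. Under median ratio scaling, quantile normalization and omission of the mitochondrial genes and their nuclear copies, the median of all genes was near 0. About as many genes were then called higher as lower (218 and 212 with median ratio scaling, against 467 and 117 in the FPKM as deposited). Under each of these 3 scalings Pdia6 and P4hb had smaller positive log2 fold changes and did not pass (0.36, 0.33 and 0.34 for Pdia6 and 0.19, 0.15 and 0.17 for P4hb, in the order given), Chac1 and Herpud1 passed, and Dnajb9 was called lower as well. With each sample rescaled to the same sum Herpud1 did not pass and the other 3 did.

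**Figure D2:**
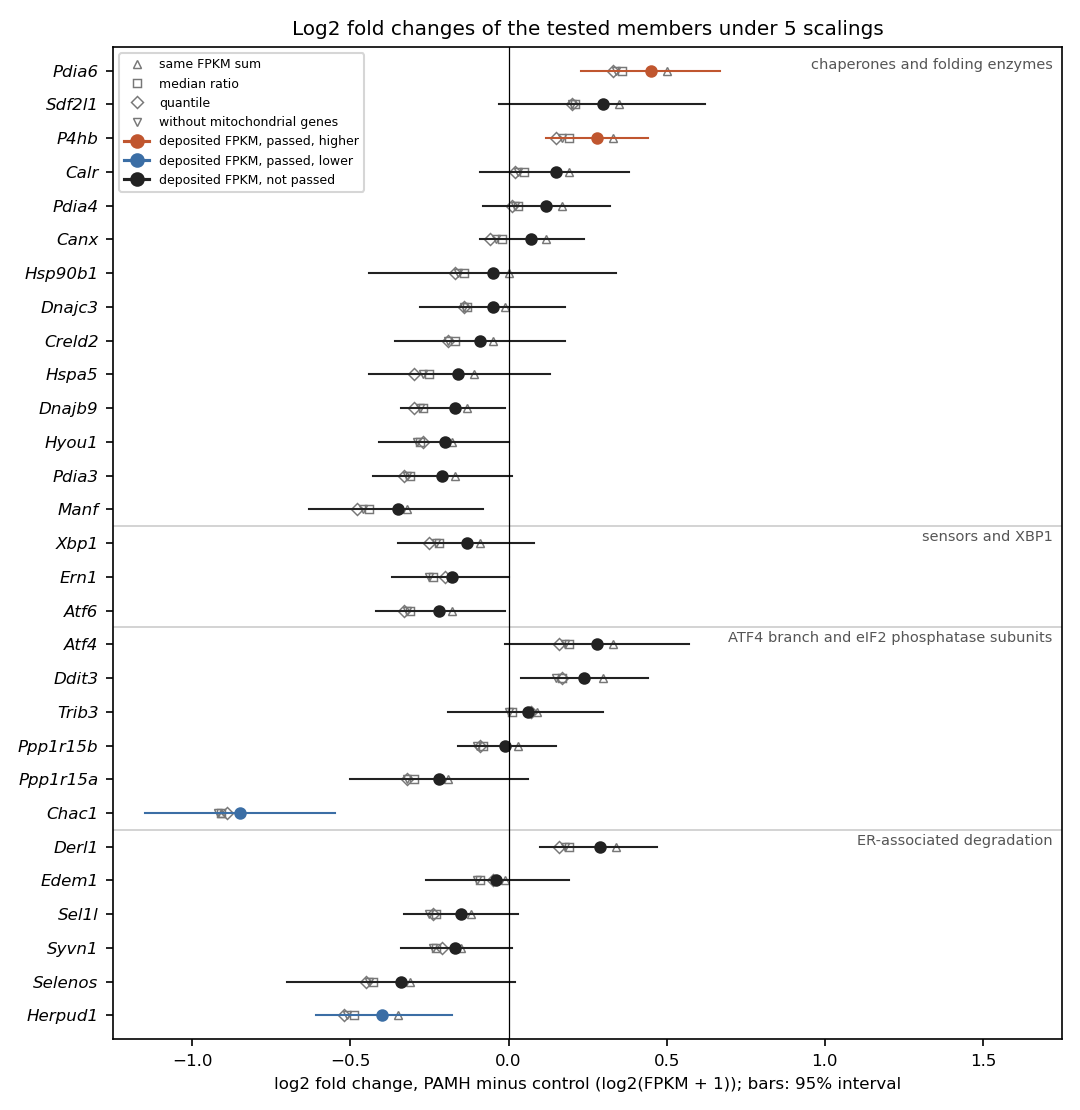
Log2 fold change, PAMH minus control on the log2(FPKM + 1) scale, of the 29 tested members by role; filled points with 95% intervals are from the FPKM as deposited and open marks from 4 other scalings. Chac1 lies at -0.85 and Pdia6 at 0.45, and 3 of the other scalings lie to the left of the filled points for most members.

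Of the 14 chaperones and folding enzymes 2 were higher, none was lower and 12 did not pass. Pdia6 (ENSMUSG00000020571, chromosome 12, 17266545 to 17284770), an isomerase that also acts on the sensor IRE1, had 13.3, 13.1, 12.2, 17.6 and 12.6 FPKM in control replicates 1 to 5 and 17.7, 17.2, 21.3, 18.6 and 20.7 FPKM in PAMH replicates 1 to 5. Control replicate 4 stood above the other controls and just above PAMH replicate 2, so the groups overlapped by that sample alone. The mean was 13.8 ± 2.18 FPKM in control and 19.1 ± 1.83 FPKM in PAMH hearts (SD, n = 5 each; log2 fold change 0.45, SE 0.10, limma adjusted p = 0.0224). P4hb (ENSMUSG00000025130, chromosome 11, 120560298 to 120573253), which encodes the classic protein disulfide isomerase and a subunit of prolyl 4-hydroxylase, had 56.4, 65.1, 59.1, 56.6 and 52.8 FPKM in control and 73.8, 64.6, 66.2, 74.7 and 74.3 FPKM in PAMH samples. Control replicate 2 lay between PAMH replicates 2 and 3, and every other control was below every PAMH sample. The mean was 58.0 ± 4.56 and 70.7 ± 4.90 FPKM (log2 fold change 0.28, SE 0.07, limma adjusted p = 0.0442). P4hb did not pass without control replicates 1, 3, 4 or 5 or PAMH replicates 1, 4 or 5, with adjusted p up to 0.185 over all settings, and Pdia6 did not pass without control replicates 1, 3 or 5 or PAMH replicate 5.

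The main ER chaperones did not pass. Hspa5, which encodes BiP, the ER member of the HSP70 family and the usual marker of ER stress (chromosome 2, 34771970 to 34777547), had 71.9, 57.4, 50.7, 75.4 and 46.4 FPKM in control and 54.9, 53.2, 44.5, 60.1 and 54.2 FPKM in PAMH samples. The PAMH values lay inside the control range except for replicate 3, which was just below it. The log2 fold change was -0.16 with a 95% interval from -0.44 to 0.13 (limma adjusted p = 0.510). Hsp90b1, the ER member of the HSP90 family, had a log2 fold change of -0.05 (95% interval -0.44 to 0.34), with 57.3 FPKM in control replicate 4 where the other controls had 31.8 to 37.6. The lectin chaperone genes Calr and Canx had log2 fold changes of 0.15 (95% interval -0.09 to 0.38) and 0.07 (-0.09 to 0.24), and that of Canx turned negative under 3 scalings. Part of Hsp90b1's exons, 415 bases, overlaps the pseudogene 1810014B01Rik on the opposite strand, which averaged 1.23 FPKM, and the strand setting of the counting is not given. On the same strand Hsp90b1 shares 133 exon bases with the miRNA gene Gm25745, which averaged 33.9 FPKM.

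Of the disulfide isomerase genes Pdia3 and Pdia4 did not pass, and the difference between isomerases was not tested. Pdia3, the isomerase that works with the lectin chaperones, had 31.3, 29.7, 28.3, 35.5 and 25.7 FPKM in control and 30.5, 25.4, 21.7, 24.6 and 27.3 FPKM in PAMH samples. Its values overlapped and its log2 fold change was -0.21 (95% interval -0.43 to 0.01, limma adjusted p = 0.235), where those of Pdia6 and P4hb were positive. Pdia4 had a log2 fold change of 0.12 (95% interval -0.08 to 0.32); its PAMH values ran only from 8.86 to 9.35 FPKM while the controls ran from 6.89 to 10.7 FPKM. A ratio of 2 genes within a sample does not change when the sample's values are all multiplied by 1 factor. The pairs were chosen after the values had been seen, so the ratios carry no test. The ratio of Pdia6 to Pdia3 was 0.426, 0.441, 0.432, 0.495 and 0.489 in control and 0.580, 0.676, 0.982, 0.755 and 0.759 in PAMH samples, with no overlap. That of P4hb to Pdia3 was 1.59 to 2.19 in control and 2.42 to 3.05 in PAMH samples, also apart.

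**Figure D3:**
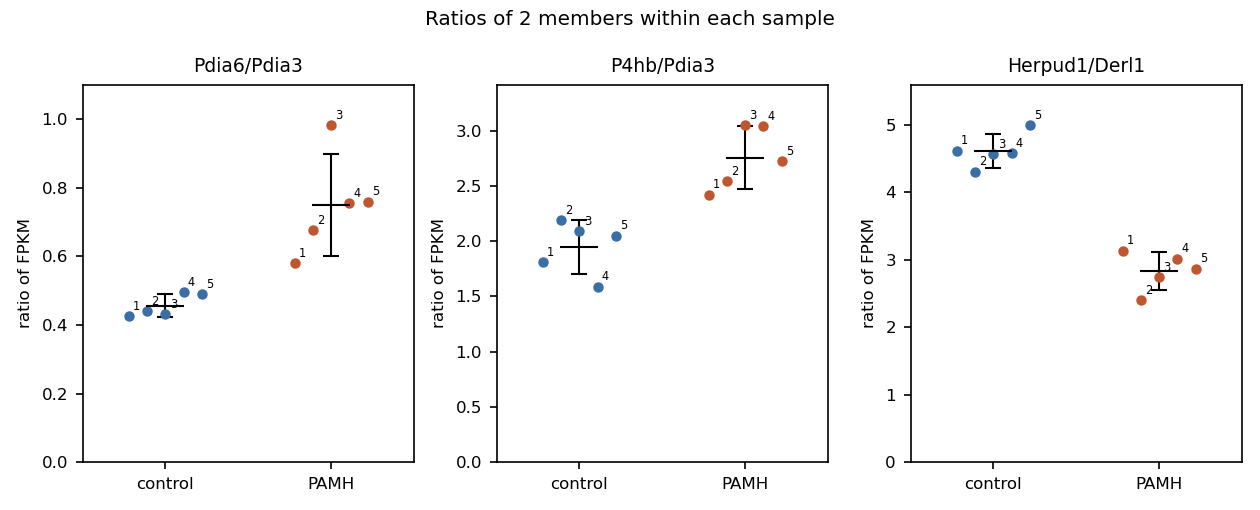
Ratio of the FPKM of 2 genes within each sample (numbered by replicate), with mean and SD (n = 5 each); the y axes start at 0. Pdia6/Pdia3 and P4hb/Pdia3 were higher, and Herpud1/Derl1 was lower, in every PAMH sample than in every control.

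The remaining chaperone members included cofactors and secreted proteins of the ER. Manf, a secreted protein released on ER calcium loss, had 11.0, 10.1, 9.48, 16.0 and 9.30 FPKM in control and 8.36, 7.19, 8.46, 9.07 and 8.87 FPKM in PAMH samples. All its PAMH values were below all controls, a pattern of 1.71% of tested genes, yet it did not pass (log2 fold change -0.35, 95% interval -0.63 to -0.08, limma adjusted p = 0.117), and control replicate 4 stood far above the other controls. Manf shares 146 exon bases with Dcaf1 on the opposite strand. Dnajb9, an ER J protein that restrains IRE1, had 16.2 ± 1.42 FPKM in control and 14.2 ± 0.829 FPKM in PAMH hearts (log2 fold change -0.17, limma adjusted p = 0.179) and was called only under the 3 scalings named above. Hyou1, a nucleotide exchange factor for BiP, had log2 fold change -0.20 (95% interval -0.41 to 0.00). Sdf2l1, a partner of ER J proteins, had 0.30 (-0.03 to 0.62), Creld2 had -0.09 (-0.36 to 0.18), and Dnajc3, a BiP cochaperone, had -0.05 (-0.28 to 0.18), a sign that turned in 4 of 20 other settings.

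**Figure D4:**
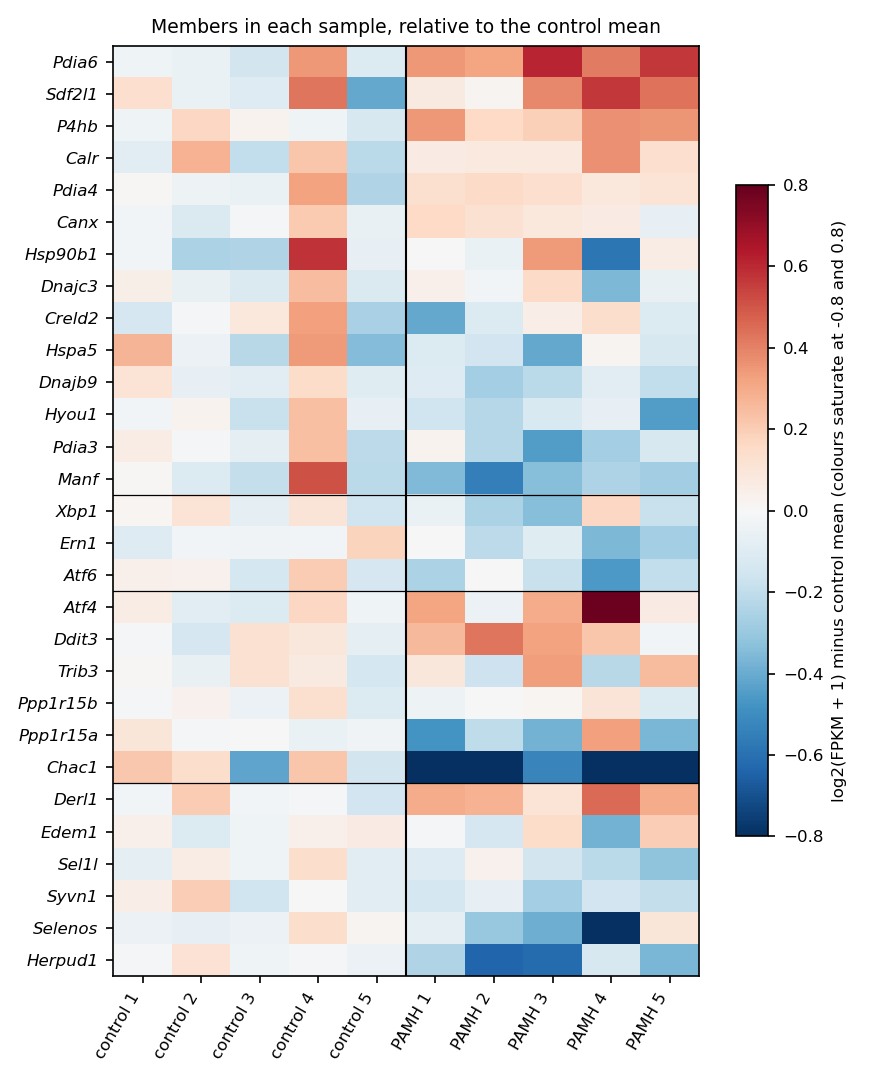
Log2(FPKM + 1) of the 29 tested members in each sample, minus the control mean of the gene, by role; colours saturate at -0.8 and 0.8. Control replicate 4 is red across most chaperones, and Chac1 and Herpud1 are blue in all 5 PAMH samples.

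Among the controls, replicate 4 most often held the highest value and replicate 5 the lowest. Control replicate 4 held the highest value of all 10 samples for 15 of the 29 tested members and the highest control value for 18, and control replicate 5 the lowest control value for 15. The median deviation of the 14 chaperones from their control mean was 0.29 in control replicate 4 on the log2 scale, against -0.17 to -0.01 in the other controls and -0.06 to 0.08 in PAMH samples. Over all tested genes that deviation was 0.03 in control replicate 4. PAMH replicate 4 held both extremes, the highest value of all 10 samples for 7 members and the lowest for another 7. Without control replicate 4 the members called were Pdia6 and Chac1, and the set's median log2 fold change was -0.03. Without PAMH replicate 4 they were Pdia6, Chac1, Herpud1 and Ppp1r15a.

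Of the 6 genes of ER-associated degradation 1 was lower, none was higher and 5 did not pass. Herpud1 (ENSMUSG00000031770, chromosome 8, 94386438 to 94395377), whose product links the ubiquitin ligase complex to the membrane channel, had 63.2, 69.3, 62.4, 63.1 and 61.7 FPKM in control and 54.0, 40.7, 41.4, 58.4 and 49.4 FPKM in PAMH samples. The controls other than replicate 2 lay between 61.7 and 63.2 FPKM, and all 5 PAMH values were below them. Its mean was 63.9 ± 3.07 and 48.8 ± 7.75 FPKM (log2 fold change -0.40, SE 0.10, limma adjusted p = 0.0372). The fall was called in 10 of 20 other settings and lost when any single control was left out, with adjusted p up to 0.101 over all of them.

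Derl1, a component of the channel through which misfolded proteins leave the ER, did not pass, and its log2 fold change was positive. Its values were 13.7, 16.1, 13.6, 13.8 and 12.4 FPKM in control and 17.2, 17.0, 15.1, 19.4 and 17.2 FPKM in PAMH samples, overlapping by control replicate 2. The log2 fold change was 0.29 (95% interval 0.10 to 0.47, limma adjusted p = 0.0633), and it was called higher in 4 of 20 other settings, among them without PAMH replicate 3. The ratio of Herpud1 to Derl1 was 4.62 ± 0.247 in control and 2.83 ± 0.285 in PAMH samples (SD, n = 5 each), with 4.31 the lowest control and 3.14 the highest PAMH value. The groups were apart in that ratio of deposited FPKM, whose pair was also chosen after the values had been seen.

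The other degradation genes all had negative log2 fold changes. Selenos, a selenoprotein that recruits the ATPase p97, had 9.65, 9.50, 9.63, 11.1 and 10.1 FPKM in control and 9.44, 7.93, 7.37, 4.43 and 10.7 FPKM in PAMH samples. PAMH replicate 4 was by far the lowest and PAMH replicate 5 lay among the controls (log2 fold change -0.34, 95% interval -0.70 to 0.02). The ligase gene Syvn1 (log2 fold change -0.17) and its partner Sel1l (-0.15) did not pass, with 95% intervals of -0.34 to 0.01 and -0.33 to 0.03, nor did Edem1, which picks out misfolded glycoproteins (-0.04, 95% interval -0.26 to 0.19). Syvn1 shares 91 exon bases with Mrpl49 on the opposite strand, which averaged 10.5 FPKM.

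**Figure D5:**
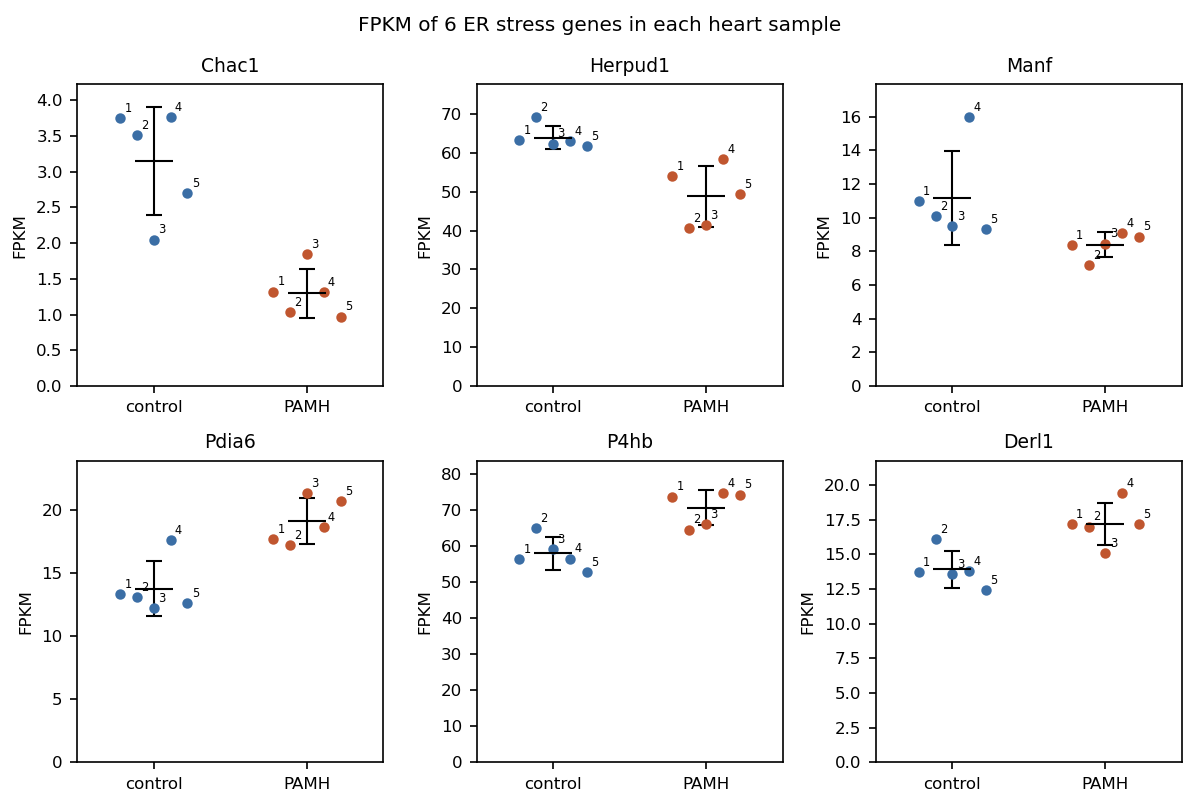
FPKM of 6 members in each sample (numbered by replicate), with mean and SD (n = 5 each); the y axes start at 0. All PAMH values of Chac1, Herpud1 and Manf lie below all controls, and those of Pdia6, P4hb and Derl1 overlap the controls by 1 control sample each.

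None of the 3 tested genes of the sensor arms passed limma's test. Only 1 of them, Atf6, had an unadjusted p under 0.05, as had 2264 of all 9439 tested genes. Atf6 had 9.94, 9.92, 8.68, 11.2 and 8.69 FPKM in control and 7.95, 9.62, 8.42, 6.76 and 8.30 FPKM in PAMH samples (log2 fold change -0.22, 95% interval -0.42 to -0.01, adjusted p = 0.189). Only PAMH replicate 2 lay inside the control range. Ern1 had a log2 fold change of -0.18 (95% interval -0.37 to 0.00) and Xbp1, whose RNA IRE1 splices, -0.13 (-0.35 to 0.08). The FPKM of Xbp1 pool its spliced and unspliced forms. The eIF2 kinase genes Eif2ak3 and Eif2ak4 were below the filter, at 0.938 ± 0.108 and 0.925 ± 0.146 FPKM, and at 0.479 ± 0.0969 and 0.484 ± 0.137 FPKM, in control and PAMH hearts.

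In the ATF4 branch Chac1 was lower and the other 5 tested genes did not pass. Chac1 (ENSMUSG00000027313, chromosome 2, 119351229 to 119354381), a target of ATF4 whose product cleaves glutathione, had 3.75, 3.51, 2.05, 3.77 and 2.70 FPKM in control and 1.32, 1.03, 1.85, 1.31 and 0.969 FPKM in PAMH samples. The highest PAMH sample, replicate 3, was below the lowest control, replicate 3. Mean levels were 3.16 ± 0.755 and 1.30 ± 0.347 FPKM (log2 fold change -0.85, SE 0.14, limma adjusted p = 0.00581). Chac1 was the member with the largest change, and it was called in each of the 19 other settings in which it was tested, with log2 fold changes from -1.22 (pseudocount of 0.1 FPKM) to -0.79 and adjusted p up to 0.0345.

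The genes of the factors upstream of Chac1 did not pass, and their log2 fold changes were positive. Atf4 had 14.3, 12.8, 12.6, 15.5 and 13.4 FPKM in control and 17.3, 13.2, 17.0, 24.3 and 14.4 FPKM in PAMH samples; replicates 2 and 5 of the latter lay within the control range and replicate 4 was the highest (log2 fold change 0.28, 95% interval -0.01 to 0.57, limma adjusted p = 0.220). Ddit3, which encodes the stress-induced factor CHOP, had 3.05, 2.70, 3.42, 3.33 and 2.87 FPKM in control and 3.87, 4.48, 4.09, 3.74 and 3.01 FPKM in PAMH samples. PAMH replicate 5 alone lay within the control range (log2 fold change 0.24, 95% interval 0.04 to 0.44, adjusted p = 0.127). Ddit3 shares 68 exon bases with Mars on the opposite strand, which averaged 6.89 FPKM, and a second Ddit3 identifier averaged 0.00340 FPKM.

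The eIF2 phosphatase subunits and the other targets showed no called change in the FPKM as deposited. Ppp1r15a, the stress-induced subunit known as GADD34, had 5.88 to 6.62 FPKM in the 5 controls and 4.12, 5.21, 4.48, 7.94 and 4.55 FPKM in PAMH samples. PAMH replicate 4 was the highest of all 10 samples and the other 4 PAMH samples were below all controls. The log2 fold change was -0.22 (limma adjusted p = 0.327) with PAMH replicate 4 and -0.36 (limma adjusted p = 0.0149), a call, without it. Ppp1r15b, the constitutive subunit, had -0.01 (95% interval -0.16 to 0.15). Trib3, a pseudokinase that restrains ATF4, had 0.06 (95% interval -0.19 to 0.30), and Asns, asparagine synthetase, was below the filter at 0.577 ± 0.232 and 0.518 ± 0.0625 FPKM.

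Members with and without the promoter elements can be set beside their values. Of the 8 carriers of the ER stress response element 1 was higher, Pdia6, and 7 did not pass, with log2 fold changes from -0.17 (Syvn1) to 0.15 (Calr) among those 7. P4hb, the other member that rose, and Herpud1 and Chac1 held no match to this form of the element in the window. Their windows did hold both CCAAT and CCACG, each on either strand. Arrangements of these other than the spacing of 9 bases were not searched. A window without this form may therefore hold another ER stress element. The Herpud1 window shown above holds attgggccacg, in which CCAAT (read on the opposite strand) and CCACG have 1 base between them. Of the 4 carriers of the C/EBP-ATF site Chac1 and Herpud1 were lower, Trib3 did not pass and Asns was not tested. No statement on the binding of a factor follows from these counts.

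Wider lists of the same pathways held 6 called genes, where 6.19% of all tested genes were called (4.95% higher, 1.24% lower). The share called was above that 6.19% among other chaperones (3 of 34) and other degradation genes (2 of 25). It was below 6.19% among ATF4 targets (1 of 29), and the lists of other sensors and of ER protein entry held none. These shares rest on few genes and on lists chosen with earlier results of these data known. Whether the lists differed from all genes was not tested. Among 34 other tested ER chaperones and folding enzymes 3 were higher, none was lower and 31 did not pass, with a median log2 fold change of 0.14 against 0.07 over all genes. Tmx2, a thioredoxin-related transmembrane protein of the ER, had 27.5, 29.8, 27.1, 26.5 and 25.3 FPKM in control and 46.5, 40.0, 32.8, 42.3 and 44.5 FPKM in PAMH samples. All PAMH samples were above all controls, as for 6.74% of tested genes (log2 fold change 0.57, SE 0.09, limma adjusted p = 0.00538). Its relative Tmx1 rose from 12.1, 13.6, 11.8, 14.5 and 13.4 FPKM in control to 17.1, 17.5, 21.7, 16.1 and 19.1 FPKM in PAMH samples (log2 fold change 0.45, limma adjusted p = 0.0137), also without overlap. Tmx2 was called in all 20 other settings and Tmx1 in 16 of 20, the 4 without a call including the same 3 scalings. Mogs, the glucosidase that trims the first glucose from new N-glycans, rose from 1.92 ± 0.353 to 2.82 ± 0.447 FPKM (limma adjusted p = 0.0464), but was called in only 5 of 19 other settings, and not when any 1 sample was left out other than control replicate 2 or PAMH replicate 3. Calu, the most abundant gene of this list, had 40.6 ± 6.25 and 37.8 ± 7.38 FPKM and did not pass.

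Among 25 other tested degradation genes 2 were higher, none was lower and 23 did not pass (median log2 fold change 0.09). Rnf5, a membrane ubiquitin ligase, rose from 10.1 ± 1.25 to 13.8 ± 0.865 FPKM (log2 fold change 0.43, limma adjusted p = 0.0147), and Ube2j2, an ER-anchored ubiquitin-conjugating enzyme, rose from 3.97 ± 0.420 to 5.49 ± 0.534 FPKM (log2 fold change 0.39, limma adjusted p = 0.0183). Neither overlapped between groups. Rnf5 was called in 19 of 20 other settings and Ube2j2 in 14 of 19, not without control replicate 3 or 4 (adjusted p up to 0.0743 over all settings), and neither was called without PAMH replicates 4 and 5. Vcp, the ATPase p97 and the most abundant of the list, had a log2 fold change of 0.16 and did not pass.

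Of 29 tested ATF4 target genes 1 was lower, none was higher and 28 did not pass, while 17 of the 46 listed were below the filter (median log2 fold change 0.03). Vldlr, the very low density lipoprotein receptor, had 24.8, 21.9, 22.8, 26.4 and 25.1 FPKM in control and 17.2, 17.0, 19.3, 14.3 and 15.8 FPKM in PAMH samples, with no overlap (log2 fold change -0.51, SE 0.09, limma adjusted p = 0.00654), and it was called in all 20 other settings. Ddit4, an inhibitor of mTOR signalling and the most abundant of the list, had 37.5 ± 4.63 and 26.9 ± 6.90 FPKM (log2 fold change -0.50, adjusted p = 0.101), and Cebpb had 31.3 ± 3.24 and 27.2 ± 7.56 FPKM (limma adjusted p = 0.381). By limma none of 28 tested genes of other sensors and the eIF2 pathway was called (median log2 fold change 0.06), and none of 30 genes of protein entry into the ER (median 0.12). In these lists 2 and 8 genes had an unadjusted limma p under 0.05, as had 2264 of all 9439 tested genes. The most abundant genes of these lists, Ppp1ca, Tmbim6, Srp14 and Ssr3, had log2 fold changes of 0.12, 0.11, 0.27 and 0.23.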

How the data were processed

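RNA-seq of 5 control and 5 PAMH hearts was analysed from 1 table of FPKM deposited by the authors for 55335 Ensembl genes. Per the submitters' processing notes the build was mm10 and the aligner and counter named were HISAT2 2.2.1 and HTSeq 0.13.5, beside Trimmomatic 0.38 and FastQC 0.11.9. The step that gave the FPKM, its annotation and its strand setting are not stated. Values ran past 6 decimals in 97.3% of the 15768 genes with several transcripts and 0.612% of the 10946 with 1, so gene values appear to combine transcript values, whole reads were not recoverable and depth is unknown. Groups came from sample titles and columns from sample descriptions.

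Symbols and coordinates (GRCm38, which is mm10) came from GENCODE vM21 (55154 identifiers matched, 181 did not), promoters from RefSeq (GRCm38.p6). Log2(FPKM + 1) of genes whose mean over samples reached 1 FPKM was fitted with limma 3.58.1 in R 4.3.3 (group term, intensity trend, 2-sided, Benjamini-Hochberg over all 9439 genes, threshold 0.05). Fold changes on this scale understate changes of low genes; SE and 95% intervals are limma's. The procedure was tested on simulated data. Members, wider lists, markers and alternatives were chosen with earlier results of these data known. All members could be named, with each wider list's called genes and its 2 most abundant, of which 1 gene is not reported here; Manf, Derl1, Dnajb9 and the other members in full detail, and all ratios, were picked after their values were seen. Planned protein ends were not analysed. Figures used matplotlib 3.10.9.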

Additional observations from a re-analysis of the deposited data

Results flagged for a closer look

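In 8 of 64 groups of 5 values (32 genes in 2 groups) 1 sample lay far from the other 4. The rule was Dixon's ratio of gap to range, above 0.71. It flags about 1 in 20 groups by chance if values are normally distributed, which FPKM need not be. Every flagged value was the highest of its group, so the count is not a test against chance. Control replicate 4 was the highest control for Hsp90b1 (57.3 FPKM, others 31.8 to 37.6), Pdia6 (17.6 FPKM, others 12.2 to 13.3), Canx (33.9 FPKM, others 26.9 to 28.9) and Manf (16.0 FPKM, others 9.30 to 11.0). PAMH replicate 4 was the highest of its group for Calr (109 FPKM, others 88.6 to 92.8) and Ppp1r15a (7.94 FPKM, others 4.12 to 5.21). Control replicate 5 was the highest control for Ern1 (1.85 FPKM, others 1.35 to 1.49) and control replicate 2 for Herpud1 (69.3 FPKM, others 61.7 to 63.2). The values of 1 gene in a sample are not independent of those of the others.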

How the results depend on the processing

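Over all genes (584 called, 467 higher and 117 lower), in the set (2 higher, 2 lower) and in the wider lists (5 higher, 1 lower), counts moved as follows. Without a filter 264 genes were called (196 higher, 68 lower), with 0 members higher and 1 lower (limma); with the filter at 5 FPKM 75 genes and 1 member were lower, and Chac1 was not tested. Rescaled to the same sum, 1 member was lower. Median ratio scaling gave 218 higher and 212 lower, 0 members higher and 2 wider-list genes higher; quantile normalization gave 233, 247, 0 and 3, and omission of the mitochondrial genes and their 7 nuclear copies, with the rest rescaled, 216, 202, 0 and 3. Removing the trend on length and GC content gave 883 calls, 743 higher, and 12 wider-list genes higher. Without PAMH replicates 4 and 5 there were 357 calls (275 higher), 0 members higher and 3 wider-list genes higher. Omission of single samples gave 274 to 1126 calls (202 to 979 higher, 66 to 147 lower), 0 to 3 members higher, 1 to 3 lower, 3 to 9 wider-list genes higher and 1 lower. The cause of these moves was not tested. No called member changed sign in any setting. The values showed no pairing by replicate number: correlations of same-numbered deviations ran from -0.1946 to 0.1598, and 1 of 5 controls correlated best with its own number. With 5 samples in each group this cannot exclude a shared litter or batch, which the labels do not give. With the replicate number as a block 239 genes were called (175 higher, 64 lower), 0 members higher, 1 lower (Chac1) and 2 wider-list genes higher.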
